A study of Homo sapiens with 12 samples.

Results

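Urothelial cancer drug target genes are described here by 7 genes that encode targets of antibodies and of immune checkpoint therapy: NECTIN4, CD274 (PD-L1), PDCD1LG2 (PD-L2), CD276 (B7-H3), VTCN1 (B7-H4), CD47 and MUC1. They were taken as a list of such targets, by a rule that uses no measured value though earlier results of these data were known, and make up 7 of the 19618 protein-coding genes of GENCODE 44. CUT&RUN, in which an antibody brings a nuclease to its target so that the DNA around it is cut out and sequenced, was performed in RT112, a line derived from a human bladder transitional cell carcinoma. The 12 samples formed 4 groups of 3 replicates each, namely an ARID1A antibody from Abcam, an ARID1A antibody from Cell Signaling Technology (CST), an H3K4me3 antibody and IgG. All were cells of the same line, which the study classed as ARID1A wild type, and the labels name no treatment and no group without ARID1A. Each list used here holds the regions of 1 antibody merged by the authors over its 3 replicates and gives positions only. The spread between replicates, the depth and the signal in a region are therefore unknown, no test was possible, and every count below is a description. IgG regions were not analysed here.

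ARID1A belongs to the chromatin remodeller SWI/SNF, which slides or evicts nucleosomes at promoters and enhancers. Its gene is often mutated in bladder cancer. H3K4me3 is a histone mark of active promoters. PD-L1, PD-L2, B7-H3 and B7-H4 belong to the B7 family of surface ligands, which restrain or modulate T cells, and CD47 is a signal to macrophages not to engulf a cell. Nectin-4 is an adhesion molecule and MUC1 a mucin of the apical epithelial surface, both shown outward on tumour cells and so open to antibodies.

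The lists held 37501 Abcam, 32932 CST and 9765 H3K4me3 regions, with median widths of 1486, 1442 and 3046 bp. Both ARID1A antibodies had a region at the promoters of 11 of 12 epithelial and urothelial markers, among them KRT7, GATA3, PPARG and UPK2, and the exception, UPK3A, had none. H3K4me3 lay at 10 of those 12 promoters, all but UPK2 and UPK3A. Among all genes, both antibodies marked 38.2% of promoters and H3K4me3 53.1%. Among markers of other cell types, both antibodies marked 0 of 5 immune genes, 1 of 3 fibroblast genes (COL1A1) and 0 of 2 hepatocyte genes, and none of these carried H3K4me3. The immune gene CD14 had an Abcam region without CST. The regions at marker genes thus followed the epithelial origin of the line, apart from UPK3A, COL1A1 and CD14, and from UPK2 for H3K4me3.

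A promoter was taken as 1 kb on either side of each transcription start site (TSS) of a protein-coding transcript. Its sequence is shown for 4 of the genes, in the RefSeq window of GRCh38.p14 that runs from 250 bases before to 50 bases after the start. CD274 and VTCN1 are shown because they were the promoters with regions of both ARID1A antibodies, CD47 because it had neither, and MUC1 because the edge of its only region fell inside this window. RefSeq windows were matched for 6 of the 7 genes, and none for PDCD1LG2. Sequences run 5′ to 3′ on the strand of the gene. Capitals mark matches on either strand to any of 14 words. These were TGANTCA as the AP-1 word, TTCNNNGAA as the GAS word, GAAANNGAA as the IRF word, GGANTTTCC as the NF-kB word, ACGTG as the HIF word, CACGTG as the E-box word and GGGCGG as the GC box word. The others were AACCNGTT for GRHL proteins, AGATAA as the word of GATA factors, TGTTTAC for FOX proteins, GGAATG for TEAD proteins, CCGGAAG for ETS proteins, TATAAA as the word of the TATA box and TGACGTCA as the CRE word. Every E-box word also contains the HIF word, and neighbouring matches can run together.
CD274, chr9:5450292-5450591, plus strand: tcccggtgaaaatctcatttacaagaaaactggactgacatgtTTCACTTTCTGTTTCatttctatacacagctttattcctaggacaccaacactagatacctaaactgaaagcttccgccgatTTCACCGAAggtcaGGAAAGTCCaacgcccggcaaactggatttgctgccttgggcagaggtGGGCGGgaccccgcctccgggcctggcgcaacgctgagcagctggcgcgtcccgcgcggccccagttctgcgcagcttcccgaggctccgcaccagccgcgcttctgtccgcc
VTCN1, chr1:117210878-117211177, minus strand: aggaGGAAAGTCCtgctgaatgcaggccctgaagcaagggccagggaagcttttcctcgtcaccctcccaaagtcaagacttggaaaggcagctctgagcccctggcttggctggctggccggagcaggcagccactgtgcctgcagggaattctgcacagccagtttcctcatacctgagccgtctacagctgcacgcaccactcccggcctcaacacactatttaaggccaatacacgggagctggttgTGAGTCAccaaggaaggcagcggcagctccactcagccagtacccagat
CD47, chr3:108090982-108091281, minus strand: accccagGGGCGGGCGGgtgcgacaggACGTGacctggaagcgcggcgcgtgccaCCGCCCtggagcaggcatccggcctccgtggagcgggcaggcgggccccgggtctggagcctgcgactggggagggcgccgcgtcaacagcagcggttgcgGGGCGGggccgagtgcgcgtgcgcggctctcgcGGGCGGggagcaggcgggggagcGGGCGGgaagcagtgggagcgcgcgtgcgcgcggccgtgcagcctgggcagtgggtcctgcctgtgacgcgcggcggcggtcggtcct
MUC1, chr1:155192866-155193165, minus strand: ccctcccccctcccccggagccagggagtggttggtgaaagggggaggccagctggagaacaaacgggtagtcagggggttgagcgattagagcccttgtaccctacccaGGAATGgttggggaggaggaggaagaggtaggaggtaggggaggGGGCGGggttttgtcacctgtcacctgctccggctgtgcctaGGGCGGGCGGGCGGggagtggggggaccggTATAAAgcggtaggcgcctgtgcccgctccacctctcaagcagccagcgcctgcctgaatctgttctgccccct

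The CD274 window held 2 IRF words whose matches overlap, 1 GAS word at -125, 1 NF-kB word at -111 and 1 GC box at -63, with positions counted from the RefSeq start. IRF and GAS words are the kind of sequence read by the interferon pathway. Of 15277 RefSeq promoters, 6.86% held the IRF word, 6.68% the GAS word and 1.59% the NF-kB word. VTCN1 shared the NF-kB word, at -246, and was the only one of the 6 windows with the AP-1 word, which 5.51% of promoters held. The CD47 window held 6 GC boxes and 1 HIF word, found in 61.8% and 23.8% of promoters. MUC1 had 4 GC boxes, a TEAD word and a TATA word at -24, the last 2 of these found in 11.3% and 9.43% of promoters. In the windows not printed, CD276 held 7 GC boxes and NECTIN4 held 2, and no other word. No window of the 6 held the E-box, GRHL, GATA, FOX, ETS or CRE word, which 8.86%, 1.54%, 7.1%, 2.48%, 14.7% and 2.77% of promoters held. A match describes letters and does not show that a factor was bound.

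At the promoters, the Abcam antibody had a region at 6 of the 7 genes, all but CD47, against 46.7% of all genes. The CST antibody had a region at 2, CD274 and VTCN1, against 41.9% of all genes. Because both of those also had an Abcam region, both antibodies marked 2 of 7, against 38.2% of all genes. H3K4me3 lay at 3 promoters, NECTIN4, CD276 and CD47, against 53.1% of all genes. When only regions at or above the median width of their list were kept, Abcam marked 3 of 7 (31.4% of all genes), CST 1 (25.9%) and both 1 (21.4%), and PDCD1LG2, VTCN1 and MUC1 then had no region. With 7 genes each count shifts by a large share when 1 gene changes, and no difference from the background was tested.

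No gene of the list had the state most common among marked promoters, which is regions of all 3 antibodies and which 33.8% of all genes had. Neither did any of them lack every region, as 39.7% of all genes did. CD274 and VTCN1 carried both ARID1A antibodies without H3K4me3, a state of 4.41% of all genes. NECTIN4 and CD276 carried Abcam and H3K4me3 without CST, as did 6.65% of all genes. PDCD1LG2 and MUC1 carried Abcam alone, the state of 1.77% of all genes. CD47 carried H3K4me3 alone, as did 9.96% of all genes.

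**Figure D1:**
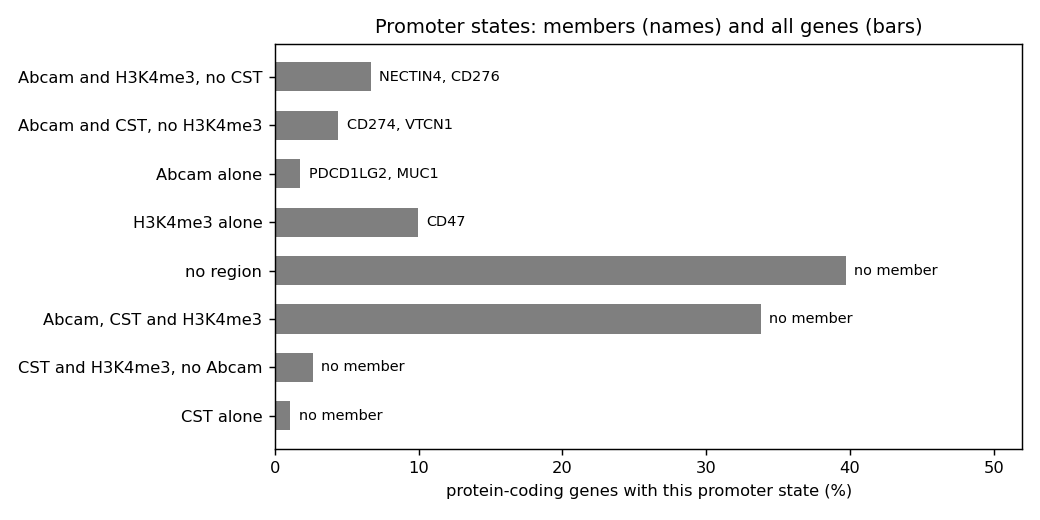
Promoter states of the 7 genes, named beside the bars, and of all protein-coding genes (bars, % of 19618 genes, from 0). The 7 genes occupy 4 states that hold between 1.77% and 9.96% of all genes, and none sits in the largest bars at 39.7% and 33.8%.

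With promoters of 1 kb around coding TSSs, H3K4me3 and both ARID1A antibodies met at no promoter of the list. All 3 had a region at NECTIN4 when the promoter was widened to 3 kb or when TSSs of all its transcripts were counted. Its nearest CST region, -3965 to -2376 bp, did not overlap its H3K4me3 region, -445 to 3042 bp. Of the 3 genes of the list with H3K4me3, 0 had both antibodies and CD47 had no ARID1A region. Among all genes with H3K4me3, 63.8% had both and 18.8% had no ARID1A region. Of the 4 genes of the list without H3K4me3, 4 had an Abcam region and 2 had both antibodies. Among all genes without H3K4me3, 13.2% had Abcam and 9.4% had both. The 6 Abcam regions at these promoters overlapped a CST region in 2 cases, compared with 80.2% of all Abcam promoter regions. These values are shares of a merged list, and a CST region that is missing may lie just under the threshold of the peak caller.

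NECTIN4, which encodes the target of enfortumab vedotin, an antibody-drug conjugate for urothelial cancer, lies at chr1:161070998-161089558 on the minus strand. Its Abcam promoter region, chr1:161088421-161090231, was 1811 bp wide, wider than 67.8% of Abcam regions, and reached from -673 to 1137 bp around the TSS. Its H3K4me3 region ran further into the gene, from -445 to 3042 bp, over exon 1 and part of intron 1. The nearest CST region began 2376 bp upstream of the TSS. That region sat within an upstream Abcam region, chr1:161091568-161093777, so the antibodies met on either side of the promoter and not on it.

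CD274, the ligand of PD-1 that checkpoint antibodies block, lies at chr9:5450503-5470566 on the plus strand. Its Abcam region spanned -1199 to 689 bp and its CST region -1199 to 435 bp around the main TSS, both over exon 1 and the start of intron 1. The regions began at the same base, 5449343, as did 1.07% of all Abcam regions that overlapped a CST region. Their widths were 1889 bp for Abcam and 1635 bp for CST, above 71.1% and 62% of their lists, so CD274 had the widest ARID1A promoter region of the list with either antibody. The nearest H3K4me3 region was 176413 bp away, at the start of RIC1.

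PDCD1LG2, which encodes the other ligand of PD-1, is downstream of CD274 at chr9:5510531-5571282 on the plus strand. Its promoter had an Abcam region of 1369 bp, chr9:5509352-5510720, which lay mainly upstream, from -1179 to 189 bp. The nearest CST region was the one at the CD274 promoter, 59554 bp away. The nearest H3K4me3 region was again that at RIC1, at 116424 bp. These neighbouring ligand genes thus both had Abcam and neither had H3K4me3, and CST marked CD274 only.

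CD276, a B7 family member found on many tumours, lies at chr15:73683966-73714514 on the plus strand and has 11 annotated coding TSSs. Its Abcam region, chr15:73683823-73685398, was 1576 bp wide and covered 9 of these TSSs. It lay wholly within an H3K4me3 region of 2629 bp, chr15:73683353-73685981. The nearest CST region was 35984 bp upstream of its most upstream coding TSS.

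VTCN1, a B7 family member that inhibits T cells, lies at chr1:117143587-117210960 on the minus strand. Its CST promoter region, chr1:117210667-117211615, was 949 bp wide, narrower than most of its list (percentile 16.1), and was contained in an Abcam region of 1376 bp, chr1:117210269-117211644. Relative to the main TSS the regions ran from -717 to 658 bp for Abcam and from -688 to 260 bp for CST. The nearest H3K4me3 region was at the TTF2 start, 111461 bp from the nearest coding TSS of VTCN1, which is an internal one.

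CD47, whose product binds SIRPA on macrophages, lies at chr3:108043091-108091862 on the minus strand. It was the 1 gene of the list with no ARID1A region of either antibody at its promoter. Its H3K4me3 region, chr3:108088996-108092054, was 3059 bp wide, close to the middle of its list (percentile 50.5), and covered 3 of 5 coding TSSs. The nearest Abcam and CST regions overlapped each other and lay 38621 and 38889 bp upstream of the nearest coding TSS of CD47.

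MUC1, a membrane mucin that antibodies and vaccines have been made against, lies at chr1:155185824-155192916 on the minus strand. Its Abcam region, chr1:155192971-155194265, ran from -1350 to -56 bp and ended short of every annotated TSS. Among all genes with an Abcam promoter region, 5.76% likewise had no TSS of the gene inside it. In the MUC1 sequence printed above, the region covers the upstream part and ends before the TATA word. From the main TSS, the nearest H3K4me3 region was 14861 bp away and the nearest CST region 15332 bp away, both at the MTX1 and THBS3 starts. Reads that did not map to a unique place were removed by the authors, and whether this affected the tandem repeats inside MUC1 was not tested.

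**Figure D2:**
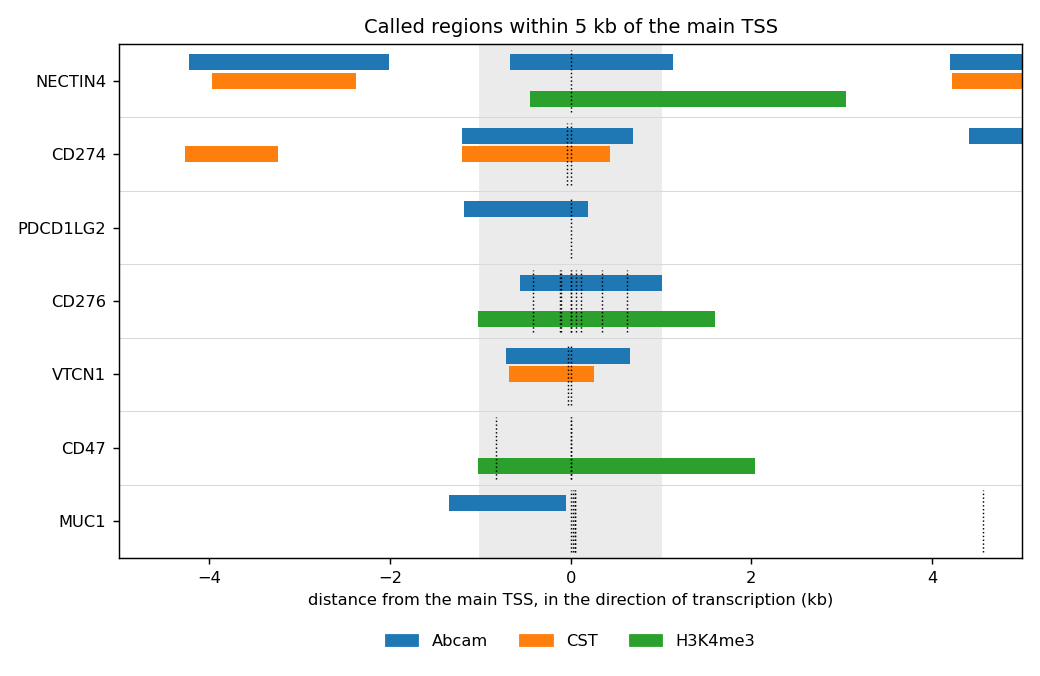
Regions within 5 kb of the main TSS of each gene (x axis, kb in the direction of transcription), with the 1 kb promoter window in grey and annotated coding TSSs as dotted lines. CST regions cross the window only at CD274 and VTCN1, H3K4me3 only at NECTIN4, CD276 and CD47, and the MUC1 Abcam region stops 56 bp before the main TSS.

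Base composition of the RefSeq windows was set beside H3K4me3 at the 6 genes that have one. The windows of genes with H3K4me3 held 10 CpG in NECTIN4, 37 in CD276 and 45 in CD47. Those without it held 22 in CD274, 7 in VTCN1 and 13 in MUC1. By CpG the groups overlapped, since NECTIN4, with fewer CpG than about 3 in 4 promoters (percentile 25.2), carried H3K4me3, and CD274 and MUC1, with more, did not. By GC content they met at 1 value. It was 65.7% in NECTIN4, 80.3% in CD276 and 79% in CD47, against 57.3% in CD274, 58.7% in VTCN1 and 65.7% in MUC1. Across all promoters, the median was 28 CpG in the states with H3K4me3 that the list held. It was 17 where both ARID1A antibodies lay without H3K4me3, 20 where Abcam lay alone, as at MUC1, and 9 where there was no region.

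Over the gene bodies and 50 kb on each side, the 7 windows together held 31 Abcam, 30 CST and 14 H3K4me3 regions, each counted once where the windows of CD274 and PDCD1LG2 overlap. Of these, 24 Abcam regions (77.4%) overlapped CST, as did 76.3% of all Abcam regions. Of the CST regions, 26 (86.7%) overlapped Abcam, for which no share over the whole CST list is given here. The overlap was lower at the promoters of the list than around them. Of the 16 Abcam regions in these windows that lay away from coding promoters, 14 (87.5%) overlapped CST, against 75.1% of all Abcam regions away from promoters. Of the 9 at promoters of other coding genes, 8 overlapped CST. Pooled over the windows, the small number of CST regions at these promoters thus did not extend to the surrounding sequence, and the difference was not tested. It did not hold at every gene. Of the 14, NECTIN4 and CD47 held 5 each, and CD47 had no Abcam region at its promoter. The windows of CD274 and PDCD1LG2 held 0 shared regions away from coding promoters.

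Counts of shared ARID1A regions, meaning Abcam regions that overlap a CST region by at least 1 bp, differed widely among the genes. NECTIN4 had 9 in a window of 119 kb, or 7.59 per 100 kb, a density above that of 98.9% of genes. CD47 had 5 (3.36 per 100 kb, percentile 81.9) and MUC1 had 3 (2.8 per 100 kb, percentile 75.9). VTCN1 with 3, CD274 with 2 and CD276 with 2 lay near the middle, at 1.79, 1.67 and 1.53 per 100 kb. PDCD1LG2 had 0 in 161 kb (percentile 11.4, the middle of the genes that tie at 0). The median density was 1.79 per 100 kb over the 7 genes and 1.4 over all genes, whose quartiles were 0.427 and 2.75, so 4 of the 7 lay outside the quartiles and 3 between them. By H3K4me3, NECTIN4 with 6 regions and MUC1 with 5 stood above 97.7% and 96.7% of genes, CD276 had 2, CD47 had 1, and CD274, PDCD1LG2 and VTCN1 had 0 in their windows. A count of 0 was common, since the lower quartile of H3K4me3 density over all genes was 0.

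**Figure D3:**
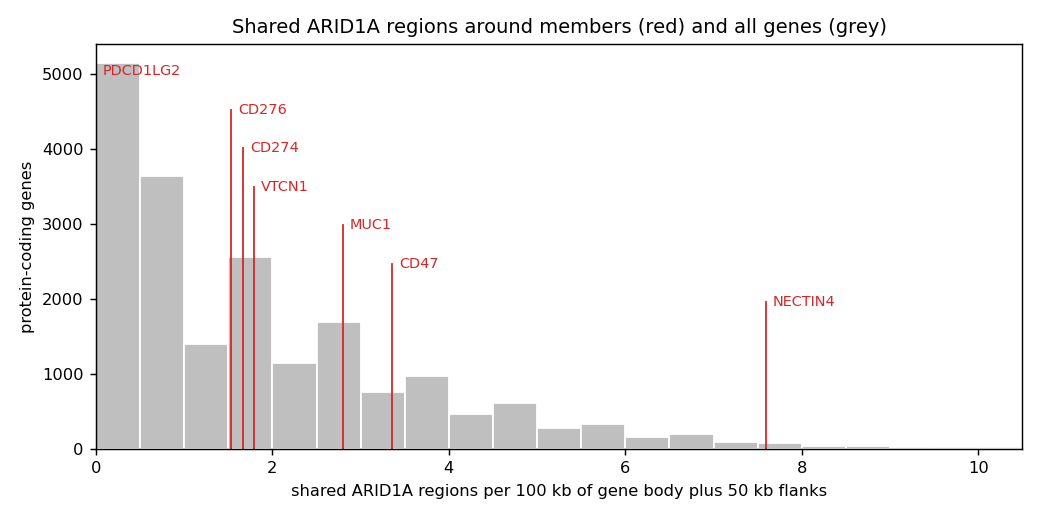
Shared ARID1A regions per 100 kb of gene body plus 50 kb flanks (x axis) against the number of protein-coding genes (y axis, grey bars), with the 7 genes as red lines whose heights carry no value. NECTIN4 at 7.59 lies in the upper tail, PDCD1LG2 at 0, and the other genes between 1.53 and 3.36.

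Around NECTIN4, 5 of the 9 shared regions lay away from coding promoters and 4 of those 5 had no H3K4me3. The widest lay within intron 1, with an Abcam region of 3631 bp, chr1:161081734-161085364 (percentile 96.2), and a CST region of 3183 bp, chr1:161082160-161085342 (percentile 94.8). The start of the long non-coding RNA NECTIN4-AS1 lay inside both. Another lay over exons 5 to 7 in the 3′ part of the gene, chr1:161073647-161075650 for Abcam, and overlapped an H3K4me3 region, chr1:161072587-161075458, that held no annotated gene start. Regions of all 3 antibodies also lay at the starts of F11R, USF1, PFDN2 with NIT1, and DEDD. CST alone had a region of 943 bp 628 bp from the KLHDC9 start.

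NECTIN4 and CD47 had the most shared regions away from coding promoters, and the widest of these at each gene is shown by the central 300 bases of the Abcam region, from hg38 on the strand of the gene, with capitals as above.
NECTIN4 intron 1, chr1:161083399-161083698, minus strand: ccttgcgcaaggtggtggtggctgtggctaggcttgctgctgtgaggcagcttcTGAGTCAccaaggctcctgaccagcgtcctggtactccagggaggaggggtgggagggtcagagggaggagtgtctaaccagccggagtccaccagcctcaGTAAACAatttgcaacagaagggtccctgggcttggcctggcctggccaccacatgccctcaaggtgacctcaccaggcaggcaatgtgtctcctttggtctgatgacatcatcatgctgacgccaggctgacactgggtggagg
CD47 upstream, chr3:108131949-108132248, minus strand: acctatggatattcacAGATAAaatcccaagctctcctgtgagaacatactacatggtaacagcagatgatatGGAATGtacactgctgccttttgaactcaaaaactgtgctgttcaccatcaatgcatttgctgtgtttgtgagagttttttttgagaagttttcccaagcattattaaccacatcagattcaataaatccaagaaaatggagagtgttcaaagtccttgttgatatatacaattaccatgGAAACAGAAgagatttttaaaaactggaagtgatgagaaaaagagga

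The NECTIN4 sequence held 1 AP-1 and 1 FOX word and the CD47 sequence 1 IRF, 1 GATA and 1 TEAD word. Among the 21378 shared regions away from coding promoters, the central 300 bases held the AP-1 word in 33.7%, the FOX word in 7.61%, the IRF word in 11.4%, the GATA word in 20.4% and the TEAD word in 21.4%. Of the 14 such regions in the windows of the list, 6 held AP-1, 4 TEAD, 3 GATA, 3 GAS and 2 TATA. The FOX, IRF, HIF, GC box and GRHL words were in 1 region each, and no other word was found. The GAS word stood in 10.3% of all such regions, TATA in 20.2%, HIF in 13.7%, the GC box in 7.08% and GRHL in 4.06%. AP-1 words were in 4 of the 5 regions around NECTIN4, 1 of the 5 around CD47 and 1 of the 2 around MUC1.

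The CD47 window held no other coding TSS, yet 5 shared ARID1A regions without H3K4me3. Of these, 4 stood together beyond the 3′ end of the gene, between 35862 and 48102 bp from it, with Abcam widths of 2135, 903, 1597 and 1300 bp. The other, the sequence printed above, lay 38620 bp upstream inside LINC01215. It measured 3233 bp with Abcam, chr3:108130483-108133715, and 3249 bp with CST, chr3:108130751-108133999 (percentiles 94.2 and 95.3). The CD47 promoter had no ARID1A region and its surroundings had 5, while at CD274 the shared regions were those at its own start and at the start of PLGRKT.

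At CD274, CST alone had a region 3201 bp upstream, chr9:5446274-5447302, and Abcam alone had a narrow one in intron 1, chr9:5454949-5455763 (815 bp, percentile 7.21). The PLGRKT start carried both antibodies without H3K4me3, as CD274 did. Around PDCD1LG2, the remaining regions were an Abcam region of 1082 bp beyond the gene, chr9:5586811-5587892, and a CST region at the far edge of the window, chr9:5620214-5622315. That CST region overlapped an Abcam region by 596 bp outside the window, which is why it adds no shared region to PDCD1LG2.

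CD276 had 1 shared region away from promoters, 35585 bp upstream of the gene, with Abcam at chr15:73647079-73648380 and CST at chr15:73647084-73647982. Its central 300 bases held 1 GAS word. All 3 antibodies marked the NPTN start at the edge of its window. VTCN1 had a shared region over exon 5 near its 3′ end, with Abcam at chr1:117146031-117147814 and CST at chr1:117146672-117147967, and a narrow region of CST alone in intron 2, chr1:117165977-117166655 (679 bp, percentile 4.11). The TRIM45 start downstream of VTCN1 had both ARID1A antibodies and no H3K4me3, the same state as the VTCN1 promoter.

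Around MUC1, regions lay mostly at starts of other genes. SLC50A1 had all 3 antibodies, DPM3 had Abcam and H3K4me3, THBS3 and MTX1 had CST and H3K4me3, and KRTCAP2 and TRIM46 had H3K4me3 only. Of the 2 shared regions away from coding promoters in this window, the one without H3K4me3 lay 17386 bp beyond the 3′ end of MUC1, chr1:155167154-155168437 for Abcam.

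Over all windows, 18 coding genes other than the 7 had a whole promoter inside a window. The starts of F11R, SLC50A1 and NPTN, at window edges, were not counted, though each had both ARID1A antibodies and H3K4me3. Of these, 7 had Abcam, 9 CST, 6 both and 9 H3K4me3 at the promoter. Among all genes the shares were 46.7%, 41.9%, 38.2% and 53.1%. The measures differ, since neighbours were judged only at TSSs inside a window and all genes at every coding TSS. TTF2, counted here as unmarked, had an H3K4me3 region at its start, which lies outside the VTCN1 window. CST was thus about as frequent as Abcam among neighbours, where in the list Abcam stood at 6 and CST at 2. Some neighbours share a region, as PFDN2 with NIT1 and THBS3 with MTX1 do, and the difference was not tested.

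**Figure D4:**
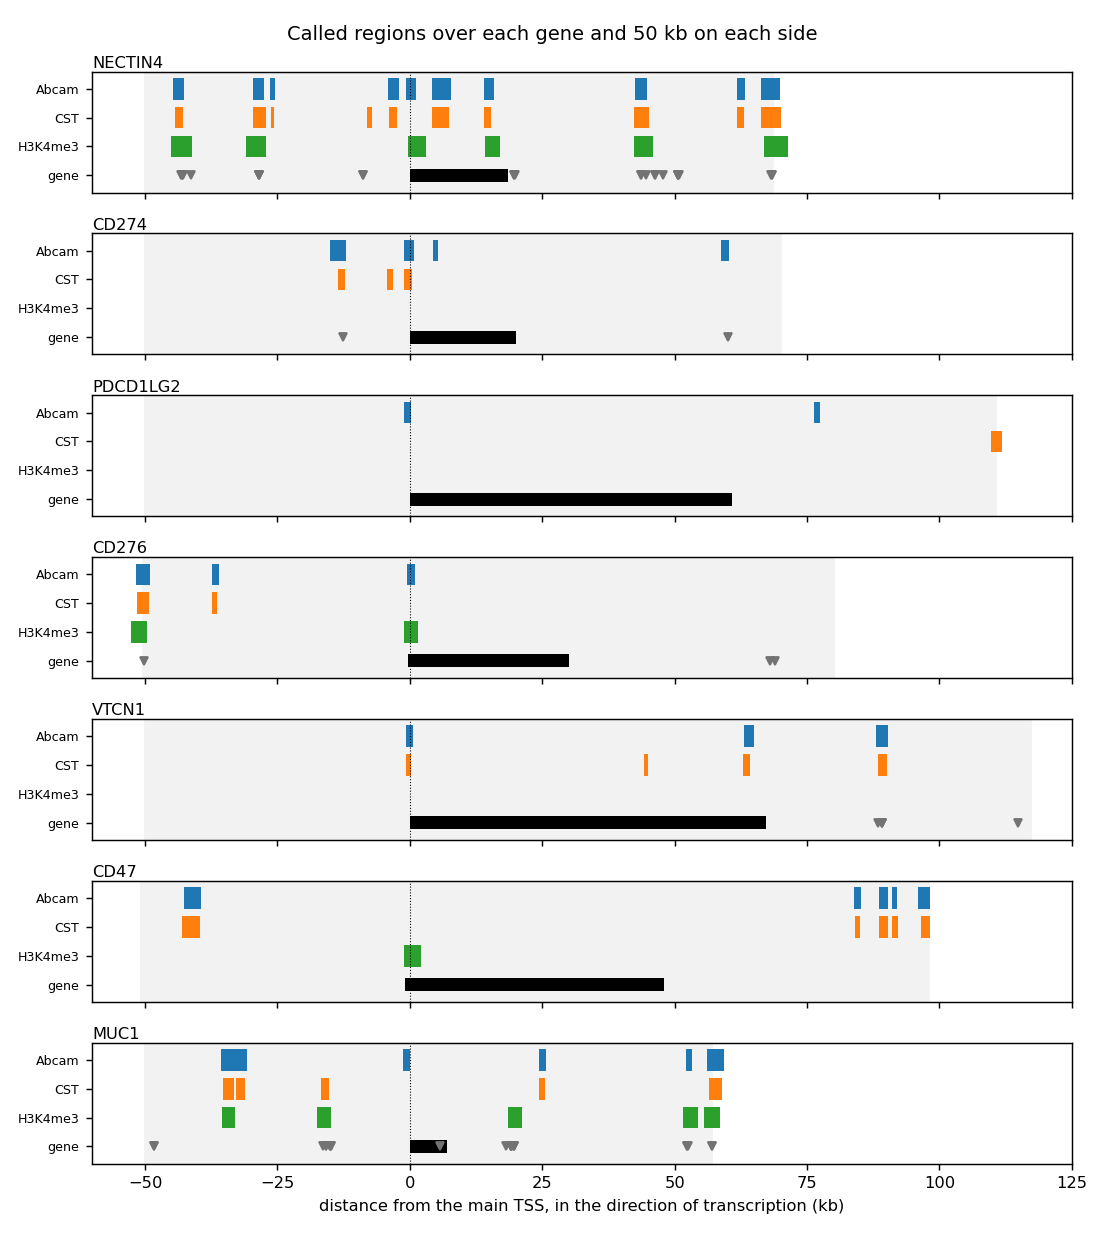
Abcam, CST and H3K4me3 regions over each gene (black bar) and 50 kb on each side (grey), by distance from the main TSS in kb, with starts of other coding genes as triangles. NECTIN4 has 9 shared ARID1A regions and CD47 has 5, all away from its own promoter, while the windows of CD274, PDCD1LG2 and VTCN1 hold no H3K4me3.

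Genes related to the list were counted in 6 sets with 79 genes, of which 42 (53.2%) had both ARID1A antibodies and 48 (60.8%) had H3K4me3 at the promoter. Among all genes, 38.2% had both antibodies, 46.7% Abcam, 41.9% CST and 53.1% H3K4me3. The counts of each set below stand beside these shares, and no difference from them was tested. Among 14 other B7 and related ligands, 3 had both antibodies (BTN2A1, BTN3A2 and VSIR), 6 had Abcam, 4 had CST and 4 had H3K4me3. The costimulatory ligands CD80, CD86 and ICOSLG, and BTN2A2, HHLA2 and LGALS9, were among the 7 without an ARID1A region. In the nectin family with its receptors, 3 of 9 had both antibodies (CADM1, NECTIN2 and NECTIN3) and all 3 also had H3K4me3, unlike NECTIN4, which lacked CST. CADM4 and the lymphocyte receptors CD226, CD96 and TIGIT had no ARID1A region. NECTIN1 and PVR, the poliovirus receptor, had CST without Abcam, the opposite of NECTIN4.

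Membrane mucins other than MUC1 had both antibodies at 2 of 9 promoters, MUC15 and MUC20, and H3K4me3 at 0 of 9. MUC12, MUC13, MUC16, MUC17, MUC21 and MUC3A were among the 7 without an ARID1A region, and no mucin of the set had Abcam alone as MUC1 did. In the CD47 axis, QPCTL, the enzyme that modifies CD47 for SIRPA binding, and THBS1, a secreted ligand of CD47, had both antibodies and H3K4me3. The leukocyte receptors SIRPA, SIRPB1, SIRPG and SIGLEC10 had no ARID1A region, and 5 of the 8 genes had H3K4me3. SIRPA was among those 5 and so had H3K4me3 alone, as CD47 did.

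Other antibody targets had both ARID1A antibodies at 16 of 21 promoters, among them AXL, CD44, CD46, CEACAM5, CLDN6 and EGFR, and H3K4me3 at 16. CD70, CLDN18 and MSLN had no ARID1A region. ERBB2, a target of antibody-drug conjugates used in urothelial cancer, also had both antibodies and H3K4me3, and was picked out after its values were seen. Regulators of PD-L1 had both antibodies at 16 of 18 promoters and H3K4me3 at 18 of 18. Those with both included IFNGR1, a receptor chain for interferon gamma, HIF1A, the hypoxia factor, the kinases CSNK2A1 and GSK3B, and CMTM4 and COPS5, which affect PD-L1 stability. CMTM6 had 1 antibody and IFNGR2 had none. CD274 itself had both antibodies but, unlike all 18 of these regulators, no H3K4me3.

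**Figure D5:**
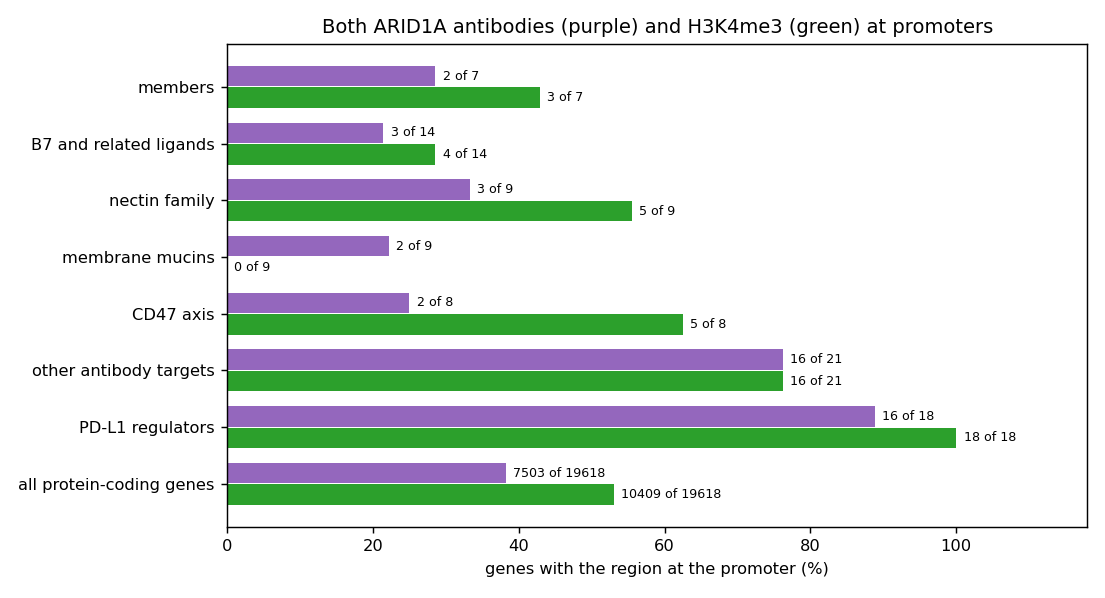
Genes with regions of both ARID1A antibodies (purple) and with H3K4me3 (green) at the promoter, in % of each set, with counts beside the bars. The 7 genes stand at 2 and 3 of 7, PD-L1 regulators at 16 and 18 of 18, and membrane mucins at 2 and 0 of 9.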

How the data were processed

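CUT&RUN regions of RT112 cells were analysed from the deposited lists, 1 per antibody, which give chromosome, start and end without signal. Per the study's methods, the authors trimmed reads with cutadapt, aligned them with bwa-mem2, removed duplicates (Picard) and reads without a unique place (samtools), scaled by E. coli spike-in, called peaks with SEACR and merged replicates with bedtools. The build was hg38. The methods and the names of the lists differ on the SEACR mode, so the threshold is uncertain. Per the same methods, only a top fraction of the peaks was retained. Samples were also randomized into library preparation batches, which the labels do not give. A merged region may come from 1 replicate.

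Regions on chromosomes 1 to 22 and X were used, leaving out 152 Abcam, 159 CST and 14 H3K4me3 regions. Overlap of at least 1 bp was counted in Python 3.11.15 at promoters of 19618 GENCODE 44 genes and over gene bodies plus 50 kb. Plots used matplotlib 3.10.9. Regions were ranked by width, since signal is not given. Scripts were tested on simulated regions. Named were all 7 genes, coding neighbours with a region at the promoter, per related set up to 6 genes with both antibodies and up to 6 with none in alphabetical order, and the widest shared region away from promoters of a window, whose sequence is printed for 2 loci. Some results for genes in the windows and sets are not reported here. The genes, sets and words were chosen with earlier results of these data known. Alternatives were windows of 500 bp and 3 kb, other TSS and overlap rules, flanks of 20 and 100 kb, joined regions and wide regions only. Whether replicates were separate cultures is not stated in the sources used here.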

Additional observations from a re-analysis of the deposited data

How the results depend on the processing

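Of 42 recomputed counts over 7 promoter settings and 5 window settings, 28 stayed within 1.5 times the reported one. When regions below the median width of their list were dropped, Abcam marked 3 promoters of the list (all genes 31.4%), CST 1 (25.9%) and both antibodies 1, CD274 (21.4%). PDCD1LG2, VTCN1 and MUC1 then had no region, and CD276 lost H3K4me3, which left 2 genes (all genes 29%). The same setting left 20 Abcam, 17 CST, 14 shared and 7 H3K4me3 regions in the windows. With flanks of 20 kb the windows held 14 Abcam, 12 CST, 8 shared and 6 H3K4me3 regions, and with flanks of 100 kb 52 Abcam, 40 shared and 27 H3K4me3 regions, since the windows shrink or grow. NECTIN4 gained CST beside Abcam and H3K4me3, making 3 of 7 genes with both antibodies, with a promoter of 3 kb (all genes 41.6%) and with TSSs of all its transcripts (all genes 40.3%). By region midpoints NECTIN4 lost H3K4me3, which left 2 genes (all genes 49.7%). With promoters of 3 kb, both antibodies marked 5 of the B7 and related ligands and 4 of the membrane mucins.

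No paired analysis was possible because the lists are merged over replicates. Leaving out a replicate was not possible either, and the depth behind the regions is unknown.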
